A study of Mus musculus with 4 samples.

Results

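Cycling T cells were here the T cells of the lymph node with at least 3 transcripts of 4 genes of dividing cells. A cell barcode was kept with at least 200 genes and under 10% mitochondrial transcripts, with no upper limit on genes or transcripts. It was a T cell when at least 1 UMI (unique molecular identifier, 1 captured RNA molecule) came from Cd3d, Cd3e or Cd3g and none from the B cell gene Cd79a. Cycling cells were then chosen by the measured UMIs of Mki67, Top2a, Birc5 and Ube2c, at least 3 together, with fewer than 5 UMIs of the plasma cell gene Jchain. This rule found 187 cells, 1.22% of 15305 T cells and a small part of 33310 filtered cells and 34323 barcodes. Control replicates 1 and 2 held 38 and 50 of them, and EV replicates 1 and 2 held 36 and 63. T cells with no UMI of the 4 genes, 14456 in all, served as resting T cells, and the 661 cells with 1 or 2 UMIs were left between the classes.

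The cells came from the draining lymph nodes of wild-type C57BL/6 mice, with 2 libraries from control mice and 2 from mice given extracellular vesicles of induced pluripotent stem cells (iPSC EVs, small membrane particles that these cells release). The study's methods and design text give 100 µg of iPSC EVs injected under the skin and harvest on day 5, with PBS for the controls in the methods, whereas the sample labels record 24 h and controls without treatment. Each library was a separate biological replicate by the methods, no cells were enriched beforehand, and neither the age of the mice nor the number per library was given in the sources used here. RNA was counted by droplet single-cell sequencing (10x 3′ v3.1), with 50749656 and 58100433 UMIs in control replicates 1 and 2 and 68116085 and 70418672 UMIs in EV replicates 1 and 2.

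Most T cells of a lymph node are naive and out of the cell cycle, held there by factors such as Klf2 and Foxp1. Antigen with costimulation makes them grow, raise glycolysis and ribosome production and divide, while Foxp3-positive regulatory T cells (Tregs), which restrain other T cells, also divide in nodes without immunization. In dividing cells the enzymes of DNA replication are transcribed first, under E2F factors, and the mitosis genes later, under protein complexes that bind CHR and CCAAT elements close to their start sites.

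The 4 genes of the rule stand for the later part of this program. Mki67 encodes the coat protein of mitotic chromosomes, Top2a untangles DNA, Birc5 guides chromosome separation, and Ube2c marks mitotic proteins for destruction. Mki67 stood at 525, 492, 481 and 493 CPM (UMIs per 1000000 UMIs of the class, normalised between libraries by edgeR's TMM method) in the cycling T cells of control replicates 1 and 2 and EV replicates 1 and 2. For Top2a the levels were 804, 522, 656 and 638 CPM in the same order. Birc5 gave 356, 208, 291 and 296 CPM, and Ube2c 265, 177, 261 and 366 CPM. All 4 genes are at 0 in resting T cells because the rule made them so, and these levels are a description. At the threshold, 42 cells held 3 UMIs of the 4 genes and 16 held 4, while 130 T cells just outside held 2 and 531 held 1.

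Because the mitosis genes are known for shared promoter elements, the promoters of 3 of the 4 genes are shown here, as the 250 bases before the start site in RefSeq (build GRCm38.p6). Capitals mark each CHR element (TTTGAA) and each CCAAT box (CCAAT), on either strand, so that TTCAAA and ATTGG are the same elements read from the other strand. Mki67 lies on the reverse strand with this window at chr7:135716380-135716629, Top2a on the reverse strand with chr11:99024190-99024439, and Birc5 on the forward strand with chr11:117848987-117849236.
Mki67: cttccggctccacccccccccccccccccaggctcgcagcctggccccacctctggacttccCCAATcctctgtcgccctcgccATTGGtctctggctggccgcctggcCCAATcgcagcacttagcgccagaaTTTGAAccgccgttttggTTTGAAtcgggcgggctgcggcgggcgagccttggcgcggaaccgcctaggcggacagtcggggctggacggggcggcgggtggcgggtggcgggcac
Top2a: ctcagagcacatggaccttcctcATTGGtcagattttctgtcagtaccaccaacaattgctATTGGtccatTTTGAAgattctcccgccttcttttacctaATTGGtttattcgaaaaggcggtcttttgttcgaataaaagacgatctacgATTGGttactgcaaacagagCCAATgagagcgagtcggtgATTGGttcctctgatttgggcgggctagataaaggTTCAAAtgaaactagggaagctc
Birc5: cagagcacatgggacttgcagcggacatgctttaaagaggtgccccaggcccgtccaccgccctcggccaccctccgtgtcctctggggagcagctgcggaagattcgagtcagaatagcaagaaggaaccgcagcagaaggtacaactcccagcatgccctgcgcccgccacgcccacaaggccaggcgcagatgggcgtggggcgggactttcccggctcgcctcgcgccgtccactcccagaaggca
Mki67 showed 2 CHR elements and 3 CCAAT boxes and Top2a 2 and 6, whereas neither set of letters was in the Birc5 window. CHR elements were found in 15.99% of 32851 RefSeq promoter windows of this length and CCAAT boxes in 33.8%. Among 27 windows of 26 genes of the mitosis list the shares were 25.9% and 81.5%, and among 31 windows of 26 genes of the replication list 9.68% and 51.6%. The E2F letters TTCCCGC, on either strand, were in 32.3% of the replication windows, in none of the mitosis windows and in 3.82% of all windows. A match is a description of the letters only.

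The label of cycling T cells was checked on genes outside the rule. All 30 genes of a replication list (G1/S and S phase) and all 30 of a mitosis list (G2 and M phase) were detected in these cells. Summed over the replication list, the level was 4141, 3617, 3867 and 3851 CPM in cycling T cells of control replicates 1 and 2 and EV replicates 1 and 2, against 403 to 438 CPM in resting T cells. Over the mitosis list it was 7131, 4934, 5403 and 6133 CPM, against 204 to 243 CPM. Hmgb2, a chromatin protein, gave the most UMIs of the mitosis list, with 3078, 2199, 1968 and 2377 CPM. Pclaf, a partner of the replication clamp, led the replication list with 616, 386, 490 and 514 CPM. Genes of the rule and of both lists were left out of the test of cycling against resting T cells, since the selection favours them.

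The largest rises outside both lists among genes at 50 CPM or more were also genes of chromosome duplication and division. They are tied to the selection as well, stand among the genes called below, and are given here by their UMIs only. Esco2, which ties sister chromatids together, gave 296 UMIs in cycling T cells and 1 in the far more numerous resting T cells. Neil3, a DNA glycosylase, gave 386 UMIs against 11, and the mitotic gene Depdc1a 279 against 8. Of the replication-dependent histones, Hist1h1b gave 3960 UMIs against 127, Hist1h3c 334 against 10 and Hist1h2ab 338 against 25. The motor gene Kif4 gave 384 against 22, the spindle gene Aspm 268 against 19, the condensin subunit Ncapg 281 against 40 and Ckap2l 283 against 35.

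The 187 cells were not alike. In 77 cells with 20 or more UMIs of the 4 genes, the median was 49.98 UMIs of the replication list and 94.4 of the mitosis list per 10000 UMIs of the cell. For 52 cells with 5 to 19 UMIs these medians were 41.5 and 21.2, so that replication genes led. The 58 cells with 3 or 4 UMIs, 31.0% of the class, lay far lower, at 3.56 and 5.67 per 10000, beside medians of 3.49 and 1.68 in resting T cells and 3.63 and 2.36 in the 661 cells between the classes. Their replication level was thus near that of resting T cells and their mitosis level above it. The 95th percentile of resting T cells was 8.70 per 10000 for replication and 6.15 for mitosis genes. Neither was exceeded by 29 of the 58 cells with 3 or 4 UMIs, by 6 of the 52 with 5 to 19 and by none of the 77 with 20 or more, so on genes outside the rule the name of cycling cell was not borne out for 29 of the cells nearest the threshold. Mitosis genes exceeded replication genes in 104 cells, the reverse held in 72, and 11 had equal UMIs. By library, 25 of 38, 26 of 50, 19 of 36 and 34 of 63 cells had more mitosis than replication UMIs.

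**Figure D1:**
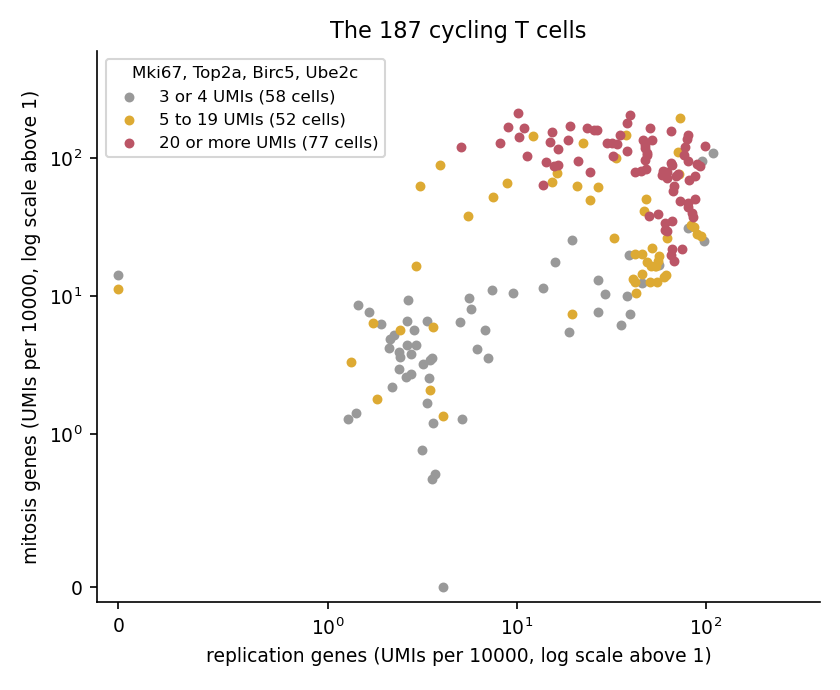
Each of the 187 cycling T cells by its UMIs of 30 replication genes (x axis) and 30 mitosis genes (y axis), both per 10000 UMIs of the cell and on a log scale above 1. Cells with 20 or more UMIs of the 4 selecting genes fill the upper right, and most of the 58 cells with 3 or 4 UMIs lie at the lower left, with medians of 3.56 and 5.67 per 10000, the first near the resting median of 3.49.

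Signs of other cells and of depth were measured before the comparisons. The medians were 32.5, 27, 44 and 36 CD3 UMIs per cycling T cell in control replicates 1 and 2 and EV replicates 1 and 2, and 9 of 187 cells held only 1 or 2. Under a stricter rule, 119 cells held no UMI of markers of other cell types. Of the defining markers, Jchain, Igha and Ighg2c of plasma cells, Ncr1, Klra4, Klra8 and Klra9 of natural killer (NK) cells, Csf1r, Adgre1 and Siglech of myeloid cells and Rag1 and Rag2 of thymocytes were at 0 in all 187 cells. The summed plasma cell list stood at 149, 113, 155 and 151 CPM, led by Irf4, which activated T cells also express, and the NK list at 17.6, 10.6, 43.6 and 35.3 CPM, led by Eomes. Thymocyte genes summed to 785, 821, 857 and 917 CPM, led by Themis of mature T cells, and erythroid genes to 1.01 to 5.79 CPM. EV replicate 1 stood apart in genes of antigen presentation, with 1128 CPM of the B cell list (346, 354 and 462 in the others), led by Cd74, and 569 CPM of the myeloid and dendritic list (122, 133 and 153), led by Cst3. A single barcode gave 209 of the 227 H2-Aa UMIs there, with 418 of Cd74, 373 of Cst3, 18 of Flt3 and 7 of Xcr1. It held 1 CD3 UMI and 5 UMIs of the cycling genes. A barcode of EV replicate 2 held 19 of the 48 H2-Aa UMIs of that library, with 89 of Cd74 and 72 of Cst3. With 19 CD3 and 3 Foxp3 UMIs, it counts among the Foxp3-positive cells. A rule of at least 3 CD3 UMIs leaves out the barcode of EV replicate 1 but not that of EV replicate 2. The shares of cycling T cells were then 0.784%, 1.03%, 1.34% and 1.76% of T cells. Scrublet, a doublet caller, marked 290, 265, 180 and 314 filtered barcodes of the libraries and none of the 187. Between 12 and 26 barcode sequences were shared by each pair of libraries, 115 in all.

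Cycling T cells held more UMIs per cell than resting T cells. Their median was 17278.5, 17487.5, 24643.5 and 23290 UMIs in control replicates 1 and 2 and EV replicates 1 and 2, against 6402.5, 7483, 8690 and 8010 in resting T cells. The ratio lay between 2.34 and 2.91 in the 4 libraries. The classes were cut by a count of UMIs, which deeper cells reach more readily. The part of the rule in this ratio was not tested. The study's own filter, which keeps cells with at most 5000 genes and 20000 UMIs, takes out 92 of the 187 cycling T cells (49.2%) but 0.713% of the resting T cells. It removes 13, 19, 24 and 36 cells of the 4 libraries. Median mitochondrial shares were 2.73%, 2.71%, 3.08% and 3.21% in cycling T cells.

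The share of cycling T cells was compared between EV-treated and control mice. It was 0.841% of T cells in control replicate 1 (exact 95% binomial interval 0.596 to 1.15) and 1.06% in control replicate 2 (0.790 to 1.398). In EV replicate 1 it was 1.39% (0.978 to 1.93) and in EV replicate 2 1.80% (1.39 to 2.30). The EV pair lay above the control pair, at 1.60% ± 0.288 (SD, n = 2) against 0.952% ± 0.157 (SD, n = 2), a difference of 0.646 percentage points. The exact two-sided permutation test gave p = 0.333, the smallest that 2 against 2 libraries allow, so no such share can pass 0.05. The intervals cover counting error only.

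The order of the groups held when all cells were thinned to 3000 UMIs, with 0.464% and 0.358% against 0.737% and 0.827%. It also held without the cells of 3 or 4 UMIs, with 0.597% and 0.680% against 1.01% and 1.26%, and at 20 or more UMIs of the 4 genes, where the shares were 0.398% and 0.297% in control and 0.620% and 0.829% in EV mice. Of all filtered cells, however, cycling T cells made up 0.464% and 0.627% in control and 0.429% and 0.719% in EV mice, and the groups overlapped (p = 1, exact permutation test). T cells as a whole were 55.2% and 59.0% of filtered cells in control and 30.8% and 39.9% in EV mice, so the denominators differ. With the study's filter, which removes the cells richest in RNA, the shares of T cells were 0.557% and 0.666% against 0.478% and 0.790%, and the groups overlapped. Of all cells left by that filter, cycling T cells were 0.307% and 0.393% in control and 0.147% and 0.317% in EV mice, so the mean was lower with EV treatment.

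**Figure D2:**
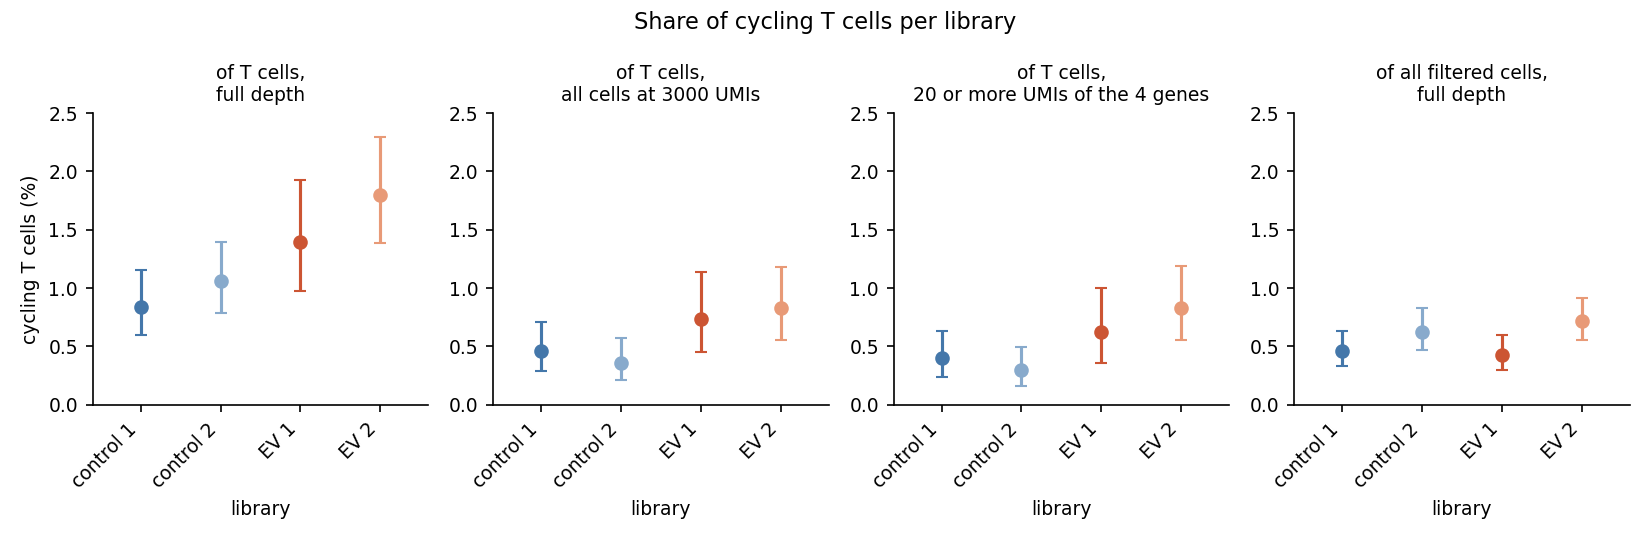
Cycling T cells in percent (y axis) in each of the 4 libraries (x axis), with exact 95% binomial intervals, as a share of T cells at full depth, after thinning to 3000 UMIs and at 20 or more UMIs of the 4 genes, and as a share of all filtered cells. The EV libraries exceed the controls in the first 3 panels, and the groups overlap in the fourth.

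Cycling T cells included both main lineages and cells with Foxp3. Cells with a Cd4 UMI and none of Cd8a made up 47.4%, 50%, 52.8% and 52.4% of cycling T cells in control replicates 1 and 2 and EV replicates 1 and 2, and those with Cd8a alone 36.8%, 30%, 44.4% and 33.3%. Neither transcript was found in 15.8%, 14%, 2.78% and 11.1%. A single UMI sets these states, and no background share is given here for Cd4 or Cd8a. The barcode of EV replicate 1 with 1 CD3 UMI counts as Cd8a-only, with 9 Cd8a UMIs. A Foxp3 UMI was held by 8 of 38, 11 of 50, 10 of 36 and 9 of 63 cells, or 21.1%, 22%, 27.8% and 14.3%. Among resting T cells, Foxp3 was found in 4.53%, 3.46%, 3.73% and 3.44%, and among B cells, which should lack it, in 0.139%, 0.207%, 0.127% and 0.0945% at median depths of 4124, 4885, 5831 and 5629 UMIs.

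Within every library the Foxp3 share was higher in cycling than in resting T cells, by 17.5 percentage points ± 5.45 (SD, n = 4 libraries). The exact paired permutation test gave p = 0.125, the smallest that 4 pairs allow. Since cycling cells held more UMIs, the 3 transcripts were also read from counts thinned to 3000 UMIs with the classes kept. Foxp3 was then found in 0 of 36 cells in control replicate 1 (exact 95% interval up to 9.74%) and in 12.5%, 17.1% and 4.92% of cycling cells in control replicate 2 and EV replicates 1 and 2. The resting shares were 2.95%, 2.10%, 2.46% and 2.07%, and the difference was 6.25 percentage points ± 7.84 (SD, n = 4), higher in 3 of 4 libraries (p = 0.375, exact paired permutation test). The Cd4-only share was 13.8 percentage points ± 1.19 (SD, n = 4) higher in cycling T cells at full depth and differed by −0.837 ± 5.41 at 3000 UMIs, so its difference was not seen at equal depth.

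EV and control mice overlapped in the Foxp3 share of cycling T cells (21.0% ± 9.54 against 21.5% ± 0.670, SD, n = 2 each, exact permutation p = 1) and in the Cd8a-only share. With the study's filter the Foxp3 shares were 16% and 16.1% in control and 25% and 18.5% in EV mice, 5.69 points higher without overlap (exact permutation p = 0.333). Both EV libraries lay above both controls in the Cd4-only share, by 3.90 percentage points (p = 0.333, exact permutation test), which was −2.88 at 3000 UMIs. In the other direction, 1.16% and 1.41% of Cd4-only T cells were cycling in control mice and 1.92% and 2.45% in EV mice. For Cd8a-only T cells the cycling shares were 0.783% and 0.775% against 1.52% and 1.48%. Foxp3-positive T cells cycled most often in every library, at 3.69% and 6.04% in control and 9.26% and 7.09% in EV mice. Each of these 3 shares was higher in both EV libraries than in both controls at full depth, but not under every setting. With the study's filter the Cd4-only shares (0.715% and 0.796% against 0.620% and 0.912%) and the Cd8a-only shares (0.450% and 0.574% against 0.489% and 0.577%) overlapped. Thinned Cd4-only cells overlapped as well, at 0.483% and 0.434% against 0.166% and 1.05%. Without cells carrying markers of other types, Foxp3-positive cells (2.58% and 5.63% against 5.88% and 4.81%) and Cd8a-only cells (0.730% and 0.704% against 1.21% and 0.716%) overlapped. Cd4-only cells without Foxp3 cycled at 0.763% and 0.898% against 0.975% and 2.12%, so the Foxp3-positive share exceeded theirs by 5.33 percentage points ± 2.21 (SD, n = 4, higher in 4 of 4, exact paired permutation p = 0.125), or 1.94 ± 2.32 and 3 of 4 after thinning.

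**Figure D3:**
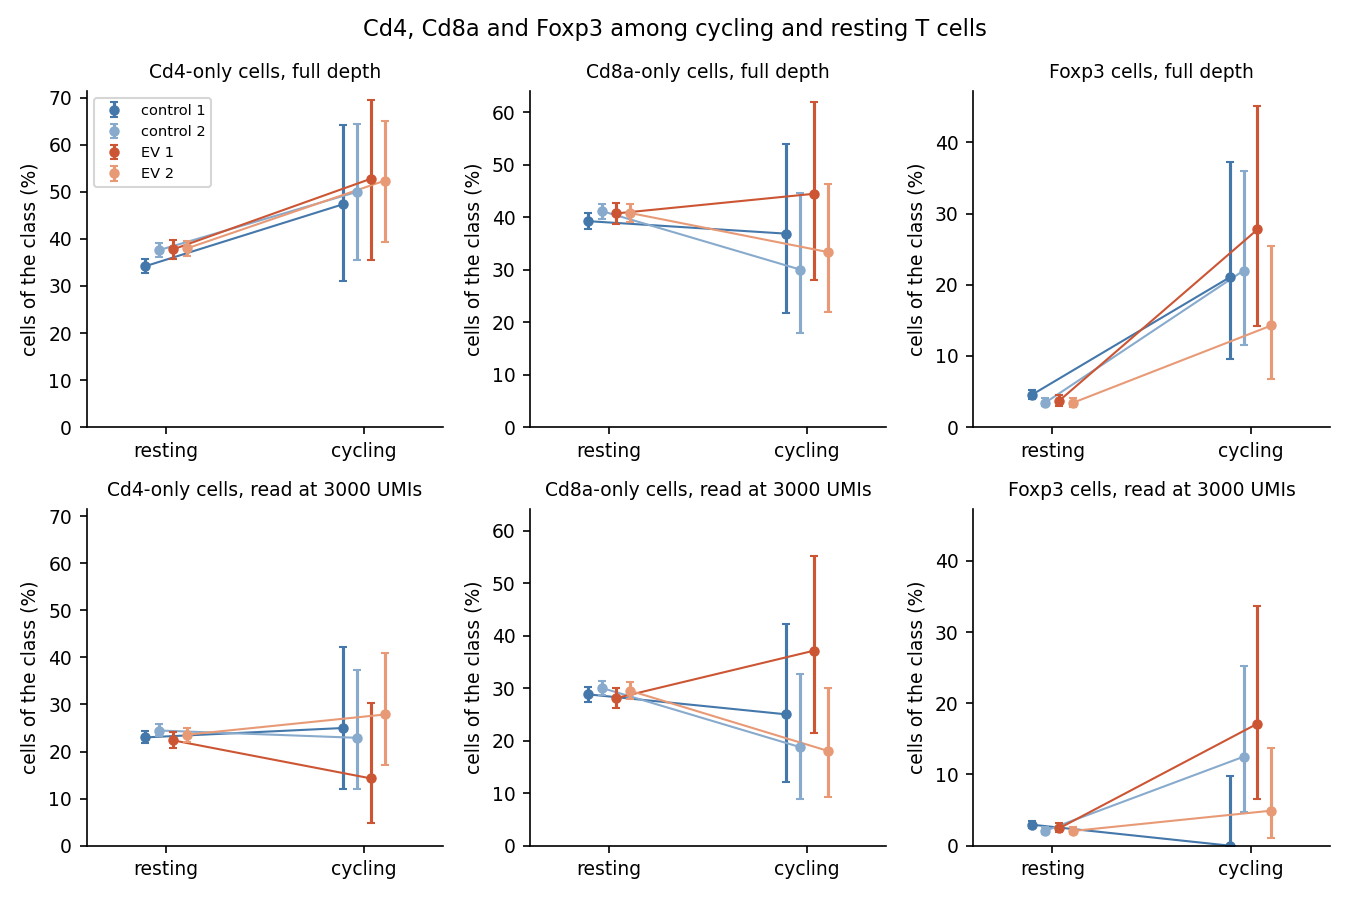
Percent of resting and of cycling T cells (x axis) that were Cd4-only, Cd8a-only or Foxp3-positive (y axes), with exact 95% binomial intervals and a line for each of the 4 libraries, at full depth (top) and read at 3000 UMIs (bottom). Foxp3 shares are higher in cycling T cells of all 4 libraries at full depth and in 3 of 4 at 3000 UMIs.

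Expression was then compared between cycling and resting T cells of the same libraries, which asks what else dividing T cells carry. UMIs were added up within each class of a library and tested by edgeR's quasi-likelihood test with library as a block, two-sided, and genes of the rule and of both cell cycle lists were left out of the test. An adjusted p under 0.05 counted as a call. Of 13540 genes, 2730 (20.2%) were called higher and 3171 (23.4%) lower in cycling T cells, and the median log2 change of all genes was −0.11. The classes were cut from the same counts and differ in depth and in makeup, so each list is given beside those shares. Within Cd8a-only cells 3027 genes were called and within Cd4-only cells without Foxp3 3231, while thinned cells gave 1795 of 10900.

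Treg genes were higher in cycling T cells, 13 of 14 tested and none lower, with a median log2 change of 2.15. Foxp3, the lineage factor of Tregs (chromosome X, 7573644 to 7595245, GRCm38), stood at 32.4, 25.1, 78.0 and 26.5 CPM in cycling T cells and at 15.3, 10.3, 11.7 and 10.3 CPM in resting T cells. The log2 change was 1.71 (SE 0.20, edgeR adjusted p = 9.1e-10), and the call was lost in thinned cells (1.02, edgeR adjusted p = 0.30) and within Cd8a-only cells (1.04, edgeR adjusted p = 0.469). Ikzf2, the Treg factor Helios, showed no overlap between classes, with 716, 991, 769 and 542 CPM against 130 to 167 CPM and a log2 change of 2.39 (SE 0.11, edgeR adjusted p = 1.7e-24). Foxp3-positive cycling cells held 2005, 2737, 1971 and 3309 per 1000000 UMIs (not normalised between libraries), where Cd8a-only cycling cells had 93.3, 166, 260 and 109. Ctla4, the inhibitory receptor of Tregs, stood at 196, 252, 299 and 230 CPM against 52.8 to 70.1 CPM and rose by 2.03 (SE 0.10). Capg, an actin-capping protein, rose by 2.83 and Nrp1 by 2.29, and Lrrc32, which docks latent TGF-beta on Tregs, was not called (0.73).

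Inhibitory receptors and costimulatory receptors shared members with the Treg list. Of 9 inhibitory receptors, 7 were higher and none lower (median 2.03), among them Pdcd1 (PD-1) by 2.94, Lag3 by 3.01 and Havcr2 (TIM-3) by 3.94, all at under 60 CPM in each library. The abundant Tox changed little, by 0.23, and Btla was not called. Of 19 activation genes, 11 were higher and 5 lower (median 0.47). Icos, a costimulatory receptor, stood at 310, 314, 284 and 302 CPM against 82.4 to 99.0 CPM in resting T cells, a rise of 1.80 (SE 0.10, edgeR adjusted p = 5.8e-21). Tnfrsf4 (OX40) rose by 2.27, the activation factor Irf4 by 2.42, Il2ra (CD25) by 1.71 and the adhesion receptor Cd44 by 1.52. The 5 lower genes were the early activation marker Cd69 (−0.54), Cd27 (−0.96), Cd40lg (−0.85), Tnfsf8 (−0.52) and Myc (−0.59). Il2ra was not called in thinned cells (0.75, edgeR adjusted p = 0.236) or within Cd4-only cells without Foxp3 (0.76, edgeR adjusted p = 0.102).

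Of 9 genes linked to follicular helper T cells, which help B cells, 7 were higher and 2 lower (median 1.88). Of the 7, Il21 and Il4 rested on few cells, since 1 cell of EV replicate 2 held 36 of the 37 Il21 UMIs of that library and single cells held most Il4 UMIs of both EV libraries. Maf rose by 2.37, whereas the lineage's own receptor Cxcr5 and factor Bcl6 fell, by 1.07 and 0.72. Helper lineage genes were mixed, with 4 higher and 2 lower of 8. Ccr4 rose by 3.12, Gata3 of the Th2 lineage by 1.06 and Ccr6 by 1.79, and Stat4, which transmits IL-12 signals, fell by 0.71.

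Effector genes went both ways, with 9 higher and 7 lower of 24 and a median of 0.12. The higher ones included genes of migration and the cytoskeleton, such as S100a6 (3.23), S100a4 (3.05) and Lgals1 (2.99). Lgals1, the lectin galectin-1, stood at 1171, 1446, 1112 and 746 CPM against 110 to 159 CPM in resting T cells. Gzmb, a granzyme of killer cells, rose by 3.67 at 6.76, 49.2, 120 and 19.6 CPM, with a wide spread over libraries, and Ifng by 3.57 at 17.6, 0.964, 3.04 and 17.7 CPM. The lower ones included the chemokine Ccl5 (−1.77), the pore-forming Prf1 (−1.84), the NK receptor chain Klrd1 (−1.27) and the factor Eomes (−1.08). NK list genes were lower in 9 of 11 and higher in none, 4 of them being at 0 in cycling T cells.

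Genes of quiescence and the naive state were lower in 17 of 18, with a median of −1.17, and none was higher. Klf2, which keeps T cells out of the cycle and in circulation, stood at 230, 276, 202 and 254 CPM against 456 to 514 CPM, a fall of 0.99 (SE 0.10, edgeR adjusted p = 5.0e-12). Lef1, a factor of naive T cells, stood at 353, 386, 323 and 425 CPM against 1081 to 1261 CPM and fell by 1.63 (SE 0.09). Il7r, the survival receptor for IL-7, fell by 1.75, Bcl2 by 1.74, Foxp1 by 1.36 and the homing receptor Ccr7 by 0.97. Tob1 alone was not called (−0.40). No library's classes overlapped for Klf2 or Lef1.

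The 10 largest falls at 50 CPM or more, outside the rule and the cell cycle lists, were led by Ly6c1. This Ly6 family surface protein stood at 2.03 to 6.31 CPM in cycling and 49.98 to 59.6 CPM in resting T cells and fell by 3.68. Ntrk3 fell by 2.81, the Schlafen gene Slfn5 by 2.53, the gut-homing receptor Ccr9 by 2.43 and Igfbp4 by 2.35. Pik3ip1, an inhibitor of PI3 kinase, fell by 2.26, as did Tcp11l2 and Lypd6b, and Tsc22d3 (GILZ) and Tdrp by 2.13 and 2.09. Ly6c1 was not called within Cd8a-only cells (−0.16, edgeR adjusted p = 0.935), Ccr9 within Cd4-only cells without Foxp3 (−1.42, edgeR adjusted p = 0.222) and Tdrp in thinned cells (−1.20, edgeR adjusted p = 0.0943).

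Growth metabolism was higher in 12 of 16 genes and lower in 1 (median 1.00). The glycolytic Gapdh stood at 1365, 1023, 1443 and 1559 CPM against 318 to 437 CPM in resting T cells and rose by 1.85 (SE 0.09, edgeR adjusted p = 3.7e-23). Tpi1 rose by 2.45, the polyamine enzyme Odc1 by 1.92, Ldha by 1.19 and the nucleolar proteins Ncl and Npm1 by 1.13 and 0.62, and the glucose transporter Slc2a1 fell by 0.66. Heat shock genes were higher in 7 of 15 and lower in 1 (median 0.34), with Hsp90aa1 up by 1.34, the cold-inducible Rbm3 up by 1.27 and its relative Cirbp down by 0.81. Interferon response genes were lower in 14 of 16, with a median of −1.03. Isg15, a ubiquitin-like protein, fell by 1.36 and Ifi206 by 1.24, and Ifi27l2a, the most abundant of the list, rose by 0.96.

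The T cell receptor complex changed less, with 1 higher and 8 lower of 17 and a median of −0.15. Trac, Trbc2 and Cd4 were not called (−0.11, −0.05 and −0.12), Cd8b1 fell by 0.73, and the kinase Lck fell by 0.75. In the p53 list 1 of 10 genes was higher and 1 lower, and in the list of nuclear or rRNA-like transcripts all 8 were lower (median −0.69), led by Malat1 at −1.60. That list includes the kinase gene Cdk8. Plasma cell genes were higher in 5 of the 8 tested out of 11 listed (Xbp1, Prdm1, Irf4, Derl3 and Txndc5), B cell genes higher in 1 (Cd74) and lower in 3 of 15, and myeloid genes higher in 2 (Xcr1 and Cst3) and lower in 6 of 15. The barcode of EV replicate 1 with 1 CD3 UMI carries UMIs of all 3 of these higher genes. Of 9 gamma-delta T cell genes 2 were higher, of 5 thymocyte genes 4 were lower, and none of 4 erythroid genes was called.

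**Figure D4:**
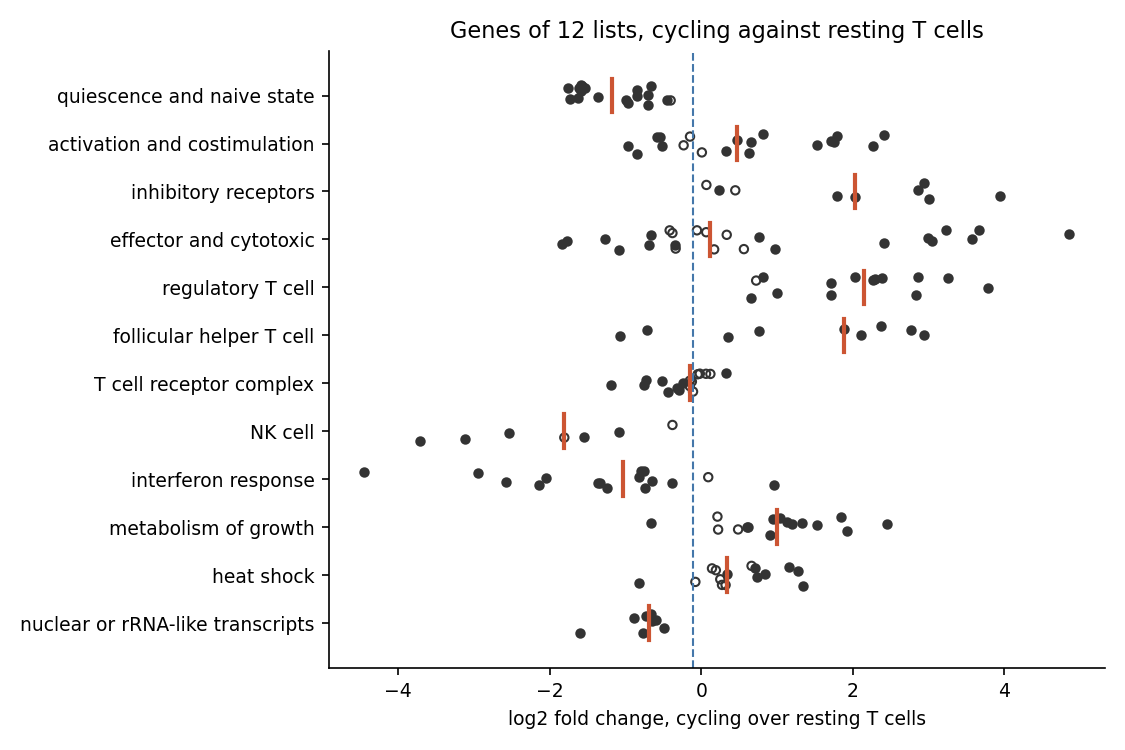
Log2 change of each gene of 12 lists (rows) in cycling over resting T cells (x axis), with filled circles for edgeR calls, open circles for genes not called, a red bar for the list's median and a dashed line at −0.11, the median of all genes. The Treg list lies to the right at a median of 2.15 and the quiescence list to the left at −1.17. Genes at 0 in cycling T cells are left out.

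EV treatment was compared with control within cycling T cells, from 689420 and 966475 UMIs in control and 944107 and 1543075 UMIs in EV sums. Of 8230 genes, 2 were called higher (0.0243%) and 2 lower (0.0243%) by edgeR's quasi-likelihood test, and 541 had an unadjusted p under 0.05. Both EV libraries lay above both controls for 20.2% of the genes and below them for 16.1%, and the median log2 change was 0.00. The 4 called genes were S100a4 and Trdc, lower, and Il4 and Prkca, higher. Each was followed to the cells that carried it.

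S100a4, a calcium-binding protein of motile and memory T cells (chromosome 3, 90603771 to 90606045, GRCm38), gave 769 and 1090 CPM in cycling T cells of control mice and 330 and 233 CPM in those of EV mice. The groups did not overlap, and the log2 change was −1.76 (edgeR adjusted p = 0.00876). The call was lost under 2 of 15 alternatives (edgeR adjusted p up to 0.26). These were the study's filter and leaving out cells with markers of other types. A UMI of S100a4 was found in 15, 24, 17 and 23 cells, or 39.5%, 48.0%, 47.2% and 36.5%. The share of positive cells thus overlapped between the groups. The mean in those cells was 37.9 and 47.1 UMIs in control and 19.2 and 16.1 UMIs in EV mice. By kind of cell the level was 1348 and 1184 against 994 and 497 per 1000000 UMIs in Foxp3-positive cells, 407 and 351 against 26.52 and 25.004 in Cd8a-only cells (3, 4, 7 and 4 cells with a UMI), and 490 and 1315 against 62.4 and 227 in Cd4-only cells without Foxp3. Each kind gave lower values in both EV libraries than in both controls. Resting T cells showed no such order, with 66.4 and 63.1 CPM against 89.9 and 41.5 CPM. The EV effect differed between cycling and resting T cells by −1.62 (edgeR adjusted p = 5.2e-13, interaction test), a call lost in thinned cells (−0.98). Its relative S100a6 had 758 and 1015 against 651 and 378 CPM in cycling T cells and was not called (−0.82, edgeR adjusted p = 0.316).

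Prkca, the signalling kinase protein kinase C alpha (chromosome 11, 107933387 to 108343928, GRCm38), was higher in EV cycling T cells. The control libraries gave 346 and 344 CPM and the EV libraries 810 and 707 CPM, a log2 change of 1.11 (edgeR adjusted p = 0.0318), with UMIs in 30, 43, 33 and 56 cells. In Cd4-only cells without Foxp3 the level was 524 and 380 against 2013 and 1064 per 1000000 UMIs, and in Foxp3-positive cells 348 and 366 against 802 and 478. Cd8a-only cells overlapped, with 297 and 428 against 253 and 396 per 1000000 UMIs. In resting T cells Prkca gave 306 and 322 against 392 and 434 CPM and was not called. The call was lost under 4 of 15 alternatives, in thinned cells (0.13, edgeR adjusted p = 0.99), at 5 or more UMIs of the 4 genes (1.12, edgeR adjusted p = 0.0725), with the study's filter (1.03, edgeR adjusted p = 0.227) and without cells carrying markers of other types (1.02, edgeR adjusted p = 0.219).

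The other 2 calls rested on few cells. Il4, the Th2 and follicular helper cytokine (chromosome 11, 53602982 to 53618669), gave 1 and 0 UMIs in control and 34 and 51 UMIs in EV cycling T cells, a ratio of 56.6 per UMI sequenced with a counting interval of 9.89 to 2261. The UMIs came from 5 cells of each EV library, and single cells held 26 of the 34 and 31 of the 51. The latter cell also held 36 UMIs of Il21, 16 of Pdcd1, 17 of Gata3 and 26 of Cd4, and the DESeq2 adjusted p of Il4 was 0.11. At 5 or more UMIs of the 4 genes Il4 was not called either (edgeR adjusted p = 0.193). In resting T cells Il4 gave 6 and 28 UMIs in 4 and 12 cells of control and 74 and 101 UMIs in 22 and 31 cells of EV mice, higher in both EV libraries and not called (2.76, edgeR adjusted p = 0.0589). Trdc, the constant part of the delta chain of the T cell receptor (chromosome 14, 54142851 to 54148868), gave 35 and 35 UMIs in control and 2 and 7 in EV libraries. They came from 3, 1, 1 and 3 cells, and single cells held 24 of the 35 UMIs and all 35 UMIs of control replicates 1 and 2. The summed gamma-delta list stood at 157 and 138 against 29.38 and 52.997 CPM, 1 of 6 tested genes being called. The share of cycling T cells with a Trdc UMI overlapped, at 7.89% and 2.00% against 2.78% and 4.76%.

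Among genes closest to the threshold, none of the following was called. Zfp53, a zinc finger protein, had 46.0 and 51.1 CPM against 132 and 130 CPM (1.39, edgeR adjusted p = 0.0587). Ust, a sulfotransferase, had 31.1 and 31.8 against 97.3 and 88.3 CPM (1.52, edgeR adjusted p = 0.0587), and resting T cells 127 and 125 against 158 and 178 CPM. Hspa8, the constitutive HSP70 chaperone, had 1417 and 1159 against 2166 and 2361 CPM (0.79, edgeR adjusted p = 0.0587), with 694 and 707 against 1217 and 1399 CPM in resting T cells, where it was called (0.90, edgeR adjusted p = 0.022). The metalloprotease Adam12 gave −2.09 (edgeR adjusted p = 0.0587), and Zbtb16, the factor of innate-like T cells, and Tcrg-C1, a gamma chain, gave −4.95 and −4.25 (edgeR adjusted p = 0.0897 and 0.106). These 6 were picked by their low unadjusted p, so their separation between the groups is part of that choice. Calls depended on the setting, with Hspa8 called under 9 of 15 alternatives, Zfp53 under 8 of 15, Ust and Adam12 under 7 of 14 each, Tcrg-C1 under 3 of 12 and Zbtb16 under 3 of 10.

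Genes the study names for T cells were read in the cycling class as well. Cdk8, a kinase of the Mediator complex, gave 397 and 236 CPM in cycling T cells of control mice against 148 and 66.2 CPM with EV treatment, without overlap and not called (−1.62, edgeR adjusted p = 0.128). It was called under 5 of 15 alternatives, namely without filterByExpr, with the replicate block, in thinned cells and without control replicate 2 or EV replicate 1, and not by DESeq2 (DESeq2 adjusted p = 1.00). Resting T cells held 819 and 480 against 278 and 95.4 CPM (−1.79, edgeR adjusted p = 0.128). The rRNA-like transcript Gm42418 was likewise lower in both EV libraries in cycling T cells, with 5842 and 6685 against 2911 and 767 CPM, and the part of such transcripts in the Cdk8 values was not tested. The paralog Cdk19 overlapped, with 86.5 and 148 against 154 and 106 CPM. Foxp3 (0.78, edgeR adjusted p = 0.815), Il2ra, Ifng and Gzmb were not called, and Mki67, which chose the cells, was not compared.

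By list, few or no genes were called, and the counts without overlap stand beside 20.2% higher and 16.1% lower of all genes tested. Of 12 heat shock genes tested in cycling T cells, 9 were higher in both EV libraries than in both controls and 2 lower, with a median log2 change of 0.67 and none called. In resting T cells 6 of 15 were called higher and 1 lower, where 50 of 14085 genes were called higher (0.355%) and 6 lower (0.0426%). Interferon response genes had a median of 0.46, with 7 of 11 higher without overlap and none called. Growth metabolism had 0.29, with 9 of 16 higher without overlap. Nuclear or rRNA-like transcripts, a list that includes Cdk8 itself, had −1.59, with 7 of 8 lower. The 6 tested genes of the B cell list had 0.86, with 4 higher and 2 lower without overlap, and this list's summed level was highest in EV replicate 1, the library of the barcode rich in Cd74 and H2-Aa. The replication and mitosis lists had medians of −0.01 and 0.07, with 5 and 2 of 30 genes higher without overlap, 4 and none lower, and no call.

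**Figure D5:**
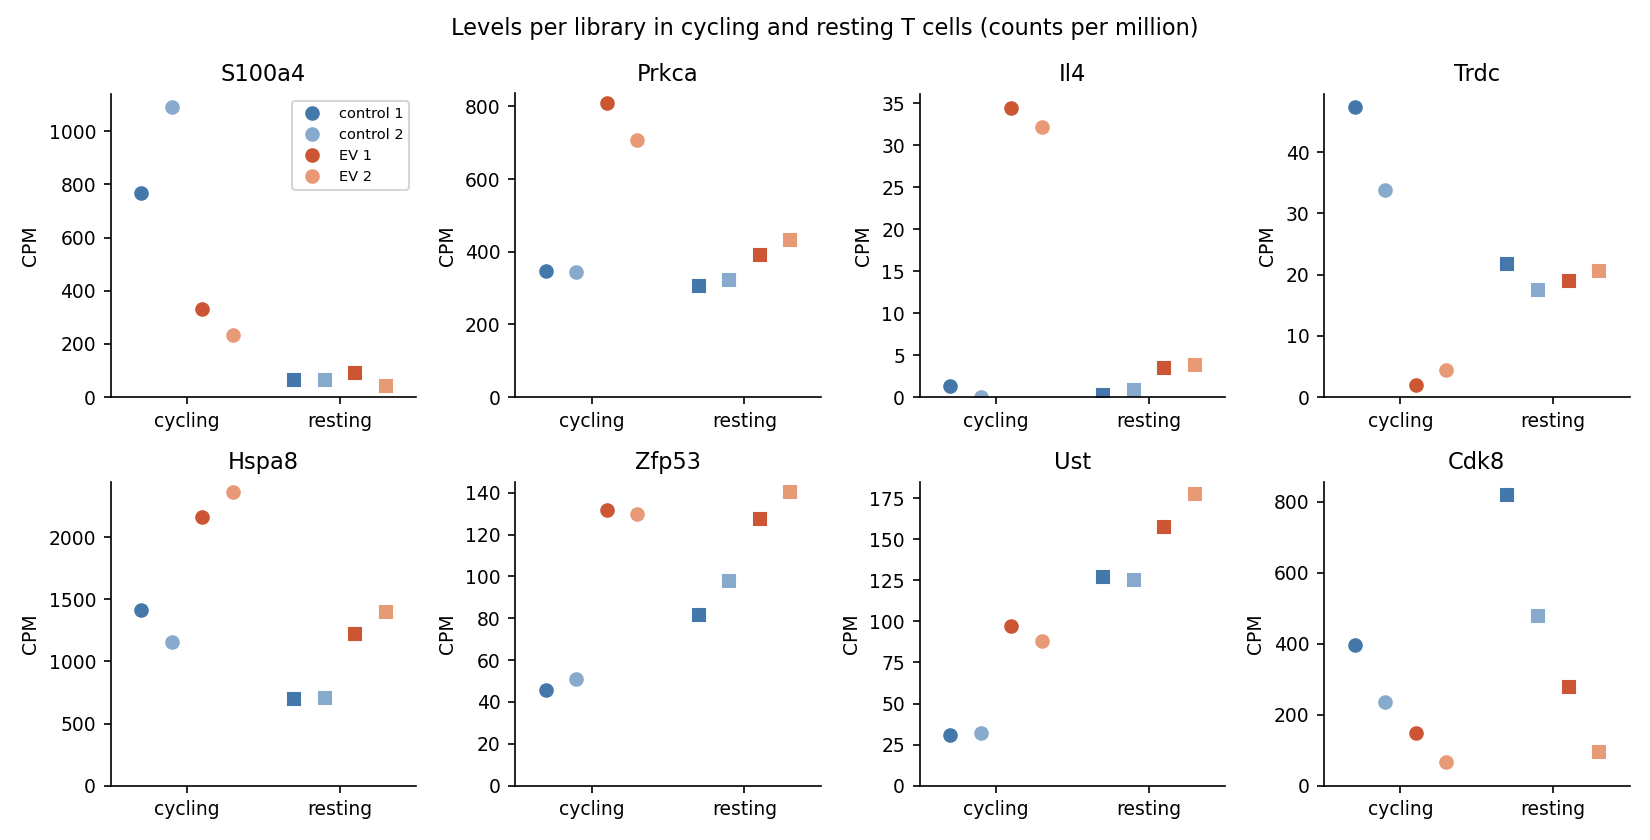
Levels in CPM (y axes, from 0) of 8 genes in cycling (circles) and resting (squares) T cells of control replicates 1 and 2 and EV replicates 1 and 2. The EV and control libraries of S100a4 are apart in cycling T cells and overlap in resting T cells, while Hspa8 and Cdk8 are apart in both classes.

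A test of the difference of EV effects between cycling and resting T cells called 51 of 13607 genes, 20 higher (0.147%) and 31 lower (0.228%), by edgeR with library as a block. All 5 genes of MHC class II or dendritic cells that were looked up (H2-Aa, H2-Ab1, H2-Eb1, Cst3 and Irf8) were among the 51. The other called genes were not sorted by cell type. A single barcode of EV replicate 1 held 209 of 227 H2-Aa UMIs in that library. S100a4 was among the 51 as well, as were Prkca (0.76, edgeR adjusted p = 0.017), Ust (1.16, edgeR adjusted p = 0.0061) and Trdc (−3.52, edgeR adjusted p = 7.8e-10). DESeq2 called 3 genes. For Hspa8 and Il4 no difference was called.

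The count of 4 EV calls depended on the settings. It was 0 with the study's cell filter (443 genes at an unadjusted p under 0.05) and 0 without cells carrying markers of other types (514 genes), 45 with the replicate number as a block, and 59 to 89 when any single library was left out, all 4 genes being called in each of those fits. S100a4 kept its direction in every alternative, from −2.03 to −1.48.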

How the data were processed

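Per the submitters' processing notes, Cell Ranger 7.1.0 and the mm10 build were used. For each library the authors deposited raw UMI counts of 32285 genes per barcode, without normalization. The annotation release was not given in the sources used here. From these counts, cells were filtered and gated by the rule in the text (Python 3.11.15, scanpy 1.11.5). The gate on Jchain took no cell out of the cycling class. It left out a T cell of control replicate 2 with too few UMIs of the 4 genes for that class, and that cell is in none of the classes compared. The members, gene lists, tests and alternatives were chosen with earlier results of these data known.

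Counts were summed per library over cycling and resting T cells and tested with edgeR 4.0.16 (R 4.3.3), after filterByExpr and TMM scaling, with p-values adjusted by Benjamini-Hochberg and called at 0.05. Cells of a library are not replicates. The libraries held 8297 to 9000 barcodes each. Shares have exact (Clopper-Pearson) 95% intervals and exact two-sided permutation tests over libraries (numpy 2.4.6, scipy 1.17.1). In simulated counts for EV against control in cycling T cells (8230 genes, 200 changed by a log2 value of 2), 93.5% were recovered, against 44.5% for the difference of EV effects (13607 genes). The simulation gave all genes the same dispersion of 0.05 and changed only genes with higher counts. These shares therefore do not describe genes of low count or genes set by single cells.

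Genes named are those the study names for T cells, those of the rule, 5 rises and 5 falls with EV treatment (called and without overlap, then by lowest unadjusted p), the 10 largest called rises and falls between classes (mean of at least 50 CPM), and the 4 most abundant of each list with defining markers. Other genes were named after their values were seen, and some genes are not reported here. For gene and promoter positions, GRCm38 and RefSeq (GRCm38.p6) were used. Alternatives were DESeq2 1.42.0, no filterByExpr, other library sizes, a replicate block, thinning to 3000 UMIs, other gates and filters, Scrublet (expected rate 6%) and each library left out.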

Additional observations from a re-analysis of the deposited data

Results flagged for a closer look

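For 6 genes the EV effect, in log2 units, differed between cycling and resting T cells by the interaction test of edgeR with library as a block. S100a4 differed by −1.62 and remained called under 13 of 14 alternatives, the exception being thinned cells (−0.98, edgeR adjusted p = 1). Prkca differed by 0.76 and lost the call under 7 alternatives that kept its direction, among them the fits without control replicate 2, EV replicate 1 or EV replicate 2, and it was −0.18 in thinned cells. Ust differed by 1.16, with a range from 0.99 to 1.63 over 14 alternatives, 7 of which lost the call (edgeR adjusted p up to 1). Trdc differed by −3.52, Tcrg-C1 by −4.22 and Zbtb16 by −4.82, and the Trdc UMIs in cycling T cells came from 8 cells. Tcrg-C1 lost the call under 7 of 13 alternatives and Zbtb16 under 7 of 14 with a change of sign in 1 more, while Trdc lost it under 1 of 13 and changed sign in 1. The single barcode of EV replicate 1 with 209 H2-Aa UMIs and 1 CD3 UMI belongs to the cycling T cells only by the letter of the rule. Its own part in the EV comparison was not tested, since the gate of at least 3 CD3 UMIs removes 9 cells over the 4 libraries.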

How the results depend on the processing

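The share of cycling T cells among T cells, 0.646 percentage points higher in EV mice, kept its direction, with 0.371 in thinned cells, 0.0220 with the study's filter, 0.410 without cells carrying markers of other types, 0.376 at 20 or more UMIs of the 4 genes and 0.0287 over all filtered cells, but over the cells left by the study's filter it was −0.118 (the settings of 20 UMIs, all filtered cells, 3 CD3 UMIs, no Trdc or Tcrg-C1 UMI and classes kept with transcripts read at 3000 UMIs were chosen after seeing the data). Without 1 library it was 0.443 to 0.849. The Cd4-only share of cycling T cells, 3.90 points higher in EV mice, was −9.11 in thinned cells, 9.17 without other markers and −2.88 with transcripts read at 3000 UMIs. The Cd8a-only difference of 5.47 was −3.98 without other markers and −0.0878 without EV replicate 1. The Foxp3 difference of −0.495 was 7.45 in thinned cells, and from −7.24 without EV replicate 1 to 6.25 without EV replicate 2. Between cycling and resting T cells, the Cd4-only difference of 13.8 was −1.13 in thinned cells, 15.7 at 5 UMIs, 8.86 with the study's filter, 16.3 at 3 CD3 UMIs, 8.99 without other markers and −0.837 read at 3000 UMIs, and the Foxp3 difference of 17.5 was 7.15 in thinned cells and 6.25 read at 3000 UMIs. The cause of these shifts, and of those in the counts of calls, was not tested.

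Calls for EV against control in cycling T cells (4) were 175 without filterByExpr, 45 with the replicate block, 17 thinned, 0 with the study's filter, 0 without other markers, 10 at 3 CD3 UMIs and 59 to 89 without 1 library. Same-numbered libraries did not deviate together (r = −0.03 in cycling and 0.08 in resting T cells). With so few libraries a group, these values cannot show whether the numbers pair them. In resting T cells the calls (56) were 315 with DESeq2, 1168 without filterByExpr, 183 with the replicate block, 179 thinned, 179 without other markers, 36 without Scrublet doublets, 91 at 3 CD3 UMIs, and from 0 without control replicate 1 (801 genes at an unadjusted p under 0.05) over 173 without control replicate 2 and 449 without EV replicate 2 to 2214 without EV replicate 1. A lone library was assumed to vary like the other group. For the difference of EV effects (51) the calls were 3 with DESeq2, 1 thinned, 28 without other markers, 33 without Trdc or Tcrg-C1 UMIs, and between 17 without EV replicate 1 and 70 without control replicate 1. Between cycling and resting T cells (5901) they were 1795 thinned, 2063 with the study's filter, 3027 within Cd8a-only and 3231 within Cd4-only cells without Foxp3. The difference of EV effects changed sign for Il4 (−1.50) and Prkca (−0.18) in thinned cells, Trdc without other markers (1.30), Zbtb16 without Trdc or Tcrg-C1 UMIs (0.41), and Hspa8 without other markers (0.078), whose values without 1 library ran from −0.20 (control replicate 2) to 0.094 (control replicate 1). For 11 genes in cycling T cells, 149 alternative values held no change of sign, and for 31 genes between the classes, 488 of 495 kept direction and call. With 36 to 63 cells a library, genes in few cells are set by single cells.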
